A study of Mus musculus with 12 samples.

Results

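Interneurons sorted from the cortex of mice at P10 (IN P10) were compared with pyramidal cells sorted at P12 (Pyr P12). The comparison takes 6 of the 12 arrays of the study, 3 for each group, chosen by the labels alone. It covers all 19937 genes that have a probe set with a single gene symbol, each given by the probe set with the highest mean over the 12 arrays. IN P10 cells were GFP+ cells of Nkx2-1Cre;RCE:LoxP mice, and Pyr P12 cells were GFP+ cells of NexCre;RCE:LoxP mice, all of strain C57BL6. In both lines Cre recombinase switches on GFP, which is then kept in cells that descend from a cell with Cre. Nkx2-1 is a transcription factor of progenitors in the medial ganglionic eminence, so the first line is aimed at interneurons from there. Nex, also called Neurod6, is a transcription factor of young excitatory neurons. The labels give cortex for IN P10 and somatosensory cortex for Pyr P12. Cell type, driver line, dissected region and the days between P10 and P12 cannot be told apart in this comparison. Newborn interneurons (IN P0) and pyramidal cells (Pyr P0) of the same lines gave a second pair of 3 arrays against 3, which shares no array with the older pair. The 3 arrays of a group are labelled biological replicates A, B and C.

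Pyramidal cells are the excitatory neurons of the cortex. They release glutamate, carry synaptic inputs on dendritic spines and send axons to distant targets. Interneurons release GABA, contact nearby cells and inhibit them. Those from the medial ganglionic eminence become mainly somatostatin and parvalbumin cells, which differ in their peptides, firing and the part of the pyramidal cell that they contact. In the second postnatal week both kinds of neuron grow axons and form synapses.

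All values are log2 signals as the authors deposited them after RMA (robust multiarray average), and a difference of 1 on this scale is a 2-fold difference. A gene is called higher or lower where the adjusted p of limma, fitted on all 12 arrays, was under 0.05 and the fold over 2. A signed value beside a gene is its log2 difference, IN P10 minus Pyr P12, unless stated otherwise. As a background level for each array, the 95th percentile over the 1210 probe sets of odorant and pheromone receptor genes was taken, 7.20 to 7.27 on the IN P10 arrays and 7.30 to 7.45 on the Pyr P12 arrays. Where no array of a group exceeded it, the gene is said to be not above background there and its fold is a lower bound against that level. Over the tested probe sets, Pearson correlations were 0.997 to 0.9986 between arrays of the same older group and 0.962 to 0.965 between IN P10 and Pyr P12 arrays. Precision is limited by the 3 arrays of each group, and an exact permutation test of 3 arrays against 3 cannot go below p = 0.1.

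The 5 marker genes follow the labels on all 6 arrays. Gad1, which encodes an enzyme that makes GABA, had 13.30, 13.16 and 13.26 in IN P10 against 8.62, 8.40 and 8.44 in Pyr P12. Erbb4, the neuregulin receptor of these interneurons, had 13.29, 13.23 and 13.27 against 7.12, 7.34 and 7.27. Sst, the gene of the peptide somatostatin, had 13.98, 14.01 and 14.10 against 8.65, 8.32 and 8.56. In the other direction, Slc17a7, which encodes the glutamate transporter of synaptic vesicles, had 8.11, 8.09 and 8.22 in IN P10 against 13.36, 13.43 and 13.30 in Pyr P12. Cacna2d1, an auxiliary calcium channel subunit, had 9.17, 8.76 and 8.97 against 13.14, 12.96 and 13.05. The groups do not overlap for any of these genes, and only Erbb4 in Pyr P12 was not above background.

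Sequences are shown for a ligand and its receptor whose genes were called in opposite directions and share a promoter motif. Both windows hold TGACGTCA, the full cAMP response element (CRE), a palindrome and so the same on both strands. The lines below give the 250 bases before the start of transcription from RefSeq (GRCm38.p6), with this motif in capitals. For Sst the window is chr16:23890845-23891094 on the minus strand and the motif begins 48 bases before the start. For Sstr2, the gene of a somatostatin receptor, it is chr11:113619077-113619326 on the plus strand and the motif begins 58 bases before the start.
Sst: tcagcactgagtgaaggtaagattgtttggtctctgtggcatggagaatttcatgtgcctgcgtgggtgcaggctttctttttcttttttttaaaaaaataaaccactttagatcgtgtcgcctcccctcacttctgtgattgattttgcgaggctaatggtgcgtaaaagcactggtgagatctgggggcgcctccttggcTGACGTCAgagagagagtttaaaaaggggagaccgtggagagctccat
Sstr2: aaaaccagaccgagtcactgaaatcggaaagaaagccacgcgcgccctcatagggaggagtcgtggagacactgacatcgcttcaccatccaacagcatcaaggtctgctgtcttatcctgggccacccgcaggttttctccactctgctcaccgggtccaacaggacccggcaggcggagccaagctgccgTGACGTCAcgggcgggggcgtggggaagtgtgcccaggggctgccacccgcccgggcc
Over all genes with a RefSeq promoter sequence, from 250 bases before to 50 after the start, 424 of 15613 (2.72%) held this motif. It was in 5 of 401 promoters of genes higher in IN P10 (1.25%) and in 13 of 434 promoters of genes lower there (3%). Among the promoters of neuropeptide genes it was in 5 of 23, those of Cartpt, Chgb, Scg2, Sst and Ucn, of which only Sst was called. A match is a description of the sequence and not evidence of binding.

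Of the 19937 genes, 508 (2.55%) were higher in IN P10 and 573 (2.87%) were lower. These shares are the background for every count of list members called higher or lower in the older pair. The newborn pair and the test of the change between the pairs have their own shares, given below. None of the 1081 called genes had overlapping arrays. The calls rest on the same arrays, so this is not separate support for them. The median difference of the genes called higher was 1.56 and of those called lower -1.41. With every value below the background level raised to it, differences over 4-fold were found for 124 higher and 122 lower genes, and over 16-fold for 11 and 8. Of the higher genes, 55 were not above background in Pyr P12, and of the lower genes, 62 were not above background in IN P10. The median difference of all genes was -0.07.

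**Figure D1:**
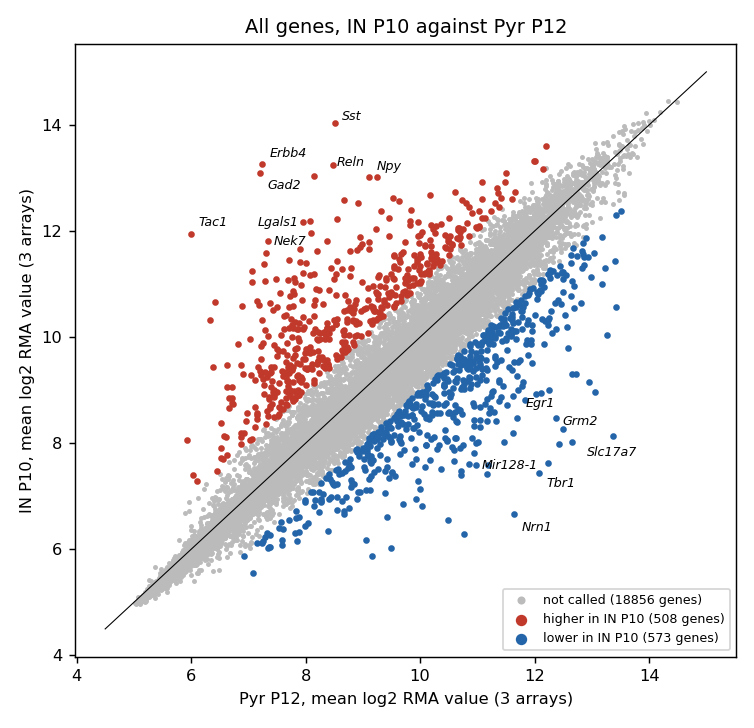
Mean log2 RMA value of each gene in Pyr P12 (x axis) and in IN P10 (y axis), 3 arrays each, with the 508 genes called higher in IN P10 in red, the 573 called lower in blue and the line of equal values in black. Erbb4, Tac1, Gad2 and Sst lie farthest above the line, and Slc17a7, Nrn1 and Tbr1 are among those farthest below it.

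The genes with the largest differences encode proteins of transmitter identity, peptides, transcription factors and surface molecules. Among the 15 most positive were Erbb4 (at least 59.5-fold), the tachykinin precursor gene Tac1, source of substance P (at least 24.0-fold), Gad2 (59.1-fold), Sst (45.8-fold), Nxph1, a secreted ligand of neurexins (29.7-fold), and Gad1 (27.0-fold). Nek7, a kinase gene of microtubule dynamics, had 11.76, 11.51 and 11.51 in IN P10 and was at least 18.7-fold higher, since no Pyr P12 array exceeded background. Akr1c18, an aldo-keto reductase gene, was at least 9.88-fold higher, Eya4, a transcriptional coactivator gene, at least 16.2-fold, and Dusp10, a MAP kinase phosphatase gene, at least 12.8-fold. Among the 15 most negative were Slc17a7 (37.4-fold lower), Nrn1, which encodes the membrane-anchored protein neuritin (at least 21.3-fold), Sv2b, a synaptic vesicle protein gene (24.8-fold), and Arpp21, which encodes a cAMP-regulated phosphoprotein (18.9-fold). Pamr1, a secreted protease-like protein gene, was lower (-3.76).

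Genes that make and package GABA were higher in IN P10, and the vesicular glutamate transporter genes Slc17a7 and Slc17a6 were lower. Of 8 measured genes of GABA synthesis, packaging and uptake, 5 were higher and 0 lower (median 1.58). Gad2, the second GABA-synthesizing enzyme, had 13.03, 13.04 and 13.22 in IN P10 against 7.32, 7.09 and 7.22 in Pyr P12. With values below background raised to it, the difference of Gad2 was 5.73 rather than 5.89. Slc32a1, which loads GABA into vesicles, had 12.18, 12.11 and 12.23 against 8.14, 7.83 and 7.91. The difference of Slc32a1 was 4.21 (SE 0.09, adjusted p = 8.95e-13), and that of Abat, which breaks GABA down, was 1.86 between high levels in both groups (12.93 and 11.07). Of 12 genes of glutamate packaging, uptake and metabolism, 0 were higher and 3 lower. Slc17a6, the second vesicular glutamate transporter gene, had 10.38, 10.57 and 10.53 in Pyr P12 and was not above background in IN P10 (at least 9.62-fold lower). Slc1a2, the gene of a glutamate uptake carrier, was lower (-3.41). The other 9, among them the third vesicular transporter gene Slc17a8 (0.65), ran from 0.18 to 0.97 with none called, and the list's median was 0.42.

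**Figure D2:**
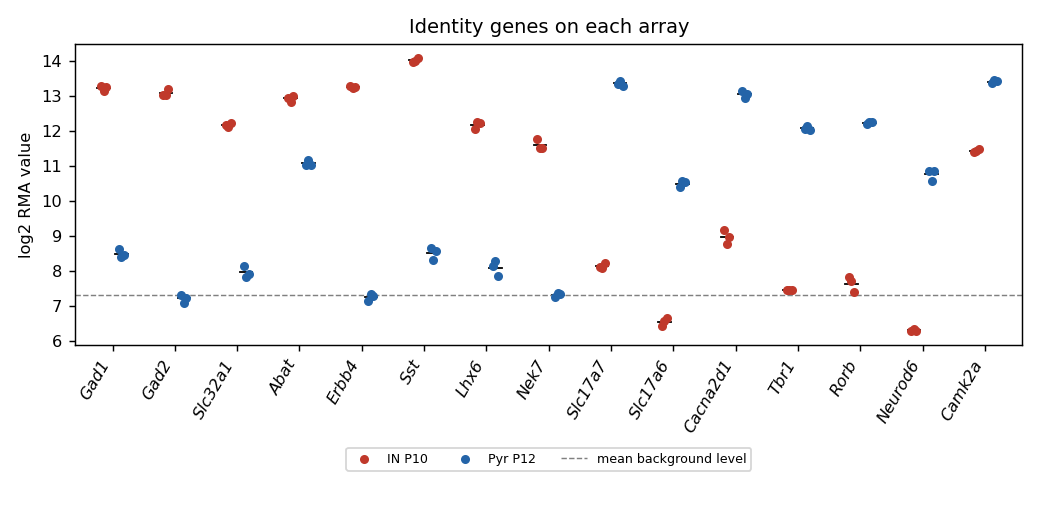
Log2 RMA values (y axis) of genes of interneuron and pyramidal identity on each IN P10 (red) and Pyr P12 (blue) array, with bars for group means and a dashed line at the mean background level of these 6 arrays. Each gene's red and blue points are apart, and Erbb4, Gad2 and Nek7 in Pyr P12 and Neurod6 and Slc17a6 in IN P10 lie at or below the dashed line.

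Transcription factors of each lineage were called in 1 direction only. Of 20 factors of interneurons, 11 were higher and 0 lower (median 1.36). Lhx6, which acts downstream of Nkx2-1 in interneurons, had 12.07, 12.25 and 12.22 in IN P10 against 8.14, 8.28 and 7.84 in Pyr P12. Dlx1, Dlx2, Dlx5 and Dlx6, homeobox genes of ganglionic eminence neurons, were higher by 4.47, 3.51, 3.60 and 3.05. Maf and Sox6, which act in interneurons after they leave the cell cycle, were higher by 3.69 and 3.43. Nkx2-1 itself was higher by 1.01, with 8.52 ± 0.06 (SD, n = 3) in IN P10 against 7.51 ± 0.21 in Pyr P12, a call lost without IN P10 replicate A (0.97) or Pyr P12 replicate C (0.90) and when values below background were raised to it (0.99). Factors typical of interneurons from the caudal ganglionic eminence were not called, with 0.05 for Prox1, 0.49 for Nr2f2 and -0.16 for Sp8. Prox1 and Sp8 were not above background in either group, so their levels cannot be compared.

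Of 29 factors of pyramidal cells, 0 were higher and 13 lower (median -0.96), and after a second quantile normalization 1 was higher and 13 lower. Tbr1, a factor of deep-layer neurons, had 12.05, 12.15 and 12.02 in Pyr P12 against 7.44, 7.44 and 7.45 in IN P10. Rorb, a factor of layer IV neurons, was lower (-4.61, SE 0.12, adjusted p = 3.54e-12). Neurod6, the gene whose locus drives Cre in the pyramidal line, was at least 11.6-fold lower and Neurod1, of the same family, at least 4.82-fold lower. Fezf2, of layer V projection neurons, was lower (-2.75), and so was Foxp2, of layer VI neurons (-2.12). Bcl11b, a factor that both projection neurons and interneurons use, had 0.94 and was not called.

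Most of the peptide genes that were called were higher in the interneurons, and receptors for several of the same peptides were lower. Of 28 genes of neuropeptides and peptide-binding proteins, 10 were higher and 3 lower (median 0.33), while of 30 genes of peptide, opioid and cannabinoid receptors, 4 were higher and 9 lower (median -0.05). Somatostatin gives the first pair. Sst was higher by 5.52 (SE 0.15, adjusted p = 5.98e-12), whereas Sstr2, its receptor gene, had 11.21, 11.11 and 11.20 in Pyr P12 against 8.77, 8.81 and 8.95 in IN P10. Sstr3, another somatostatin receptor, was lower (-1.27), and Sstr1 and Sstr4 had -0.07 and 0.14. Cort, the gene of the related peptide cortistatin, was higher by 1.23.

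Neuropeptide Y, an inhibitory peptide, gives the second pair. Npy had 13.19, 13.00 and 12.86 in IN P10 against 9.14, 8.96 and 9.25 in Pyr P12. Its receptor gene Npy1r had 9.55, 9.84 and 9.69 in Pyr P12 and was not above background in IN P10 (at least 5.53-fold lower). Npy2r and Npy5r had -0.13 and -0.26, neither called, and Npy2r was not above background in either group. The tachykinin receptors were called in opposite directions. Tac1 had 12.09, 11.92 and 11.85 against 6.02, 5.89 and 6.10. Tacr1, the receptor of substance P, was higher in the same cells by 1.30. Tacr3, the receptor of neurokinin B, had 9.06, 9.04 and 9.25 in Pyr P12 against 7.04, 7.12 and 7.21 in IN P10, where 1 array was above background. Crhbp, which encodes a protein that binds corticotropin-releasing hormone, was at least 14.8-fold higher. Crhr1, the receptor of that hormone, had 11.35, 11.36 and 11.29 in Pyr P12 against 8.46, 8.48 and 8.34 in IN P10, a difference of -2.90 (SE 0.08, adjusted p = 6.01e-12).

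PACAP, a peptide encoded by Adcyap1, ran the other way. Adcyap1 had 10.87, 10.70 and 10.57 in Pyr P12 against 7.35, 7.48 and 7.40 in IN P10. Its receptor gene Adcyap1r1 had 12.32, 12.46 and 12.56 in IN P10 against 10.84, 10.84 and 10.86 in Pyr P12. Grp, which encodes gastrin-releasing peptide, was lower (-2.51), and its receptor gene Grpr had 0.86 and was not called. Grpr was not above background in either group. Cck, the cholecystokinin gene, was lower (-1.28), as was its receptor gene Cckbr (-1.80). The opioid precursor genes Penk, Pdyn and Pnoc were higher by 1.93, 2.12 and 2.25. Of their receptors, Oprd1 was higher by 2.04, Oprk1 was at least 2.27-fold lower, and Oprm1 and Oprl1 had 0.16 and 0.02.

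**Figure D3:**
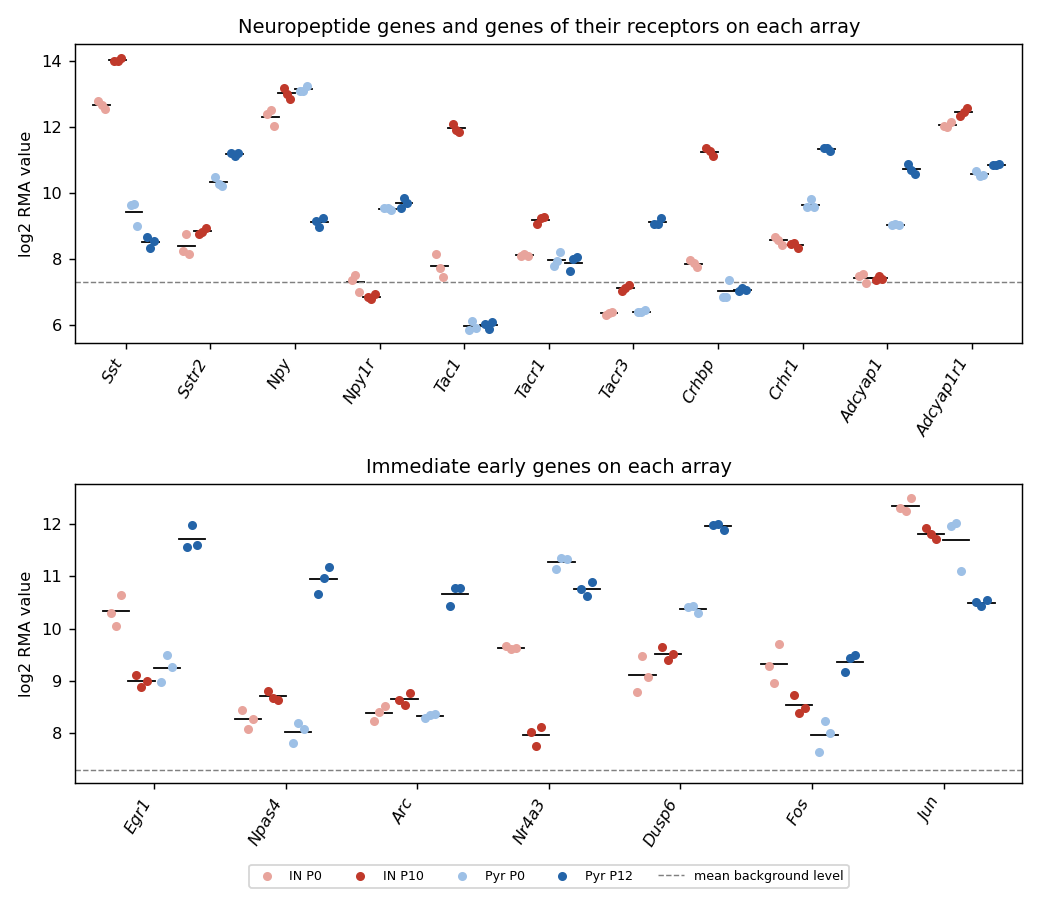
Log2 RMA values (y axis) on each array of the 4 groups for peptide genes with genes of their receptors (top) and for immediate early genes (bottom), with bars for group means and a dashed line at the mean background level of the IN P10 and Pyr P12 arrays. Sst, Npy, Tac1 and Crhbp are higher in IN P10 and Sstr2, Npy1r, Tacr3 and Crhr1 higher in Pyr P12, while Egr1, Npas4 and Arc are highest in Pyr P12.

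Of 25 genes in the list of interneuron subclasses, which also holds the general interneuron genes Gad1 and Erbb4, both called higher, 13 were higher and 2 lower. Besides the peptides these included Reln, which encodes the extracellular protein reelin, with 12.95, 13.04 and 13.08 in IN P10 against 9.25, 9.21 and 9.27 in Pyr P12, and Elfn1, a synaptic protein gene of somatostatin cells, higher by 2.65. Pvalb, the parvalbumin gene, had 7.83 ± 0.20 (SD, n = 3) in IN P10 and was not above background in Pyr P12, and it was not called. Vip and Htr3a, typical of interneurons from the caudal ganglionic eminence, had -0.29 and -0.27. Neither was above background in IN P10 or Pyr P12, so their levels cannot be compared. Lamp5, known as a marker of a class of interneurons, was lower (-3.15), with 12.25, 12.05 and 12.02 in Pyr P12. Th, which encodes tyrosine hydroxylase, was higher by 3.07.

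Receptors of glutamate differed by class. Of 6 NMDA receptor subunit genes, 2 were higher and 1 lower. Grin3a had 12.52, 12.65 and 12.70 in IN P10 against 9.33, 9.51 and 9.73 in Pyr P12, and Grin2d was higher by 2.81, whereas Grin2a, a subunit of mature synapses, was lower (-1.23) and Grin2b had -0.24. Of 8 kainate and delta receptor genes, 4 were higher and 0 lower, with 1.42 for Grik1, 1.15 for Grik2, 1.10 for Grik3 and 1.02 for Neto1, which encodes an auxiliary subunit. The call for Neto1 was lost without IN P10 replicate B (0.99), IN P10 replicate C (0.98) or Pyr P12 replicate C (0.98). Of 19 genes of AMPA receptor subunits and their auxiliary proteins, 3 were higher and 1 lower. Gria1 was higher by 1.32, Grip1, a scaffold of these receptors, by 1.52, and Cacng4, an auxiliary subunit, by 1.19, while Cnih3, another auxiliary protein, was lower, with 9.90 ± 0.21 (SD, n = 3) against 11.90 ± 0.07, and Gria2 had -0.27.

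Of 7 metabotropic glutamate receptor genes, 0 were higher and 3 lower. Grm2, which encodes an inhibitory autoreceptor, had 12.30, 12.42 and 12.39 in Pyr P12 against 8.54, 8.50 and 8.40 in IN P10, and Grm8 and Grm7 were lower (-1.71 and -1.40). Of 30 postsynaptic scaffold genes, 0 were higher and 9 lower (median -0.63). Baiap2, which links receptors to actin in spines, was lower (-3.02), as were Camk2a, the kinase subunit abundant in excitatory synapses (-1.97), and Nrgn, a calmodulin-binding protein gene (-1.93). Camk2a had a mean of 11.44 in IN P10, against 13.41 in Pyr P12. The gene of gephyrin, the scaffold of inhibitory synapses, had -0.14 (Gphn) and that of PSD-95 -0.64 (Dlg4).

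Of 17 GABA receptor genes, 1 was higher and 3 were lower. Gabrg3 was higher by 1.59, and Gabra2, Gabra4 and Gabrb1 were lower (-1.23, -1.21 and -1.03). The call for Gabrb1 was lost without IN P10 replicate C (-0.99). Among 40 monoamine and acetylcholine receptor genes and modulators, 5 were higher and 6 lower. Lypd6, a modulator of nicotinic receptors, was higher by 1.85, Drd2, a dopamine receptor gene, by 1.61, and Htr1b, a serotonin receptor gene, by 1.36. Drd3, Hrh3, Chrm1 and Chrm4 were lower (-1.62, -1.56, -1.55 and -1.36).

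Potassium channel genes were called in both directions. Of 40 genes of voltage-gated channels, 7 were higher and 9 lower, and the list's median of -0.01 turned to 0.02 when each array was centred on its median. Kcnip1, which encodes a subunit of A-type channels, had 12.53, 12.53 and 12.54 in IN P10 against 8.79, 8.89 and 9.07 in Pyr P12 (SE 0.07, adjusted p = 3.11e-13). Kcnc2, a Kv3 subunit gene of fast-spiking cells, was higher by 2.57, and its relative Kcnc1 by 1.04, a call lost without IN P10 replicate C (0.93). Kcnh5 had 12.87, 12.99 and 12.99 in Pyr P12 against 8.98, 9.23 and 9.28 in IN P10, and its relatives Kcnh3 and Kcnh1 were lower (-2.11 and -1.86), while Kcnh2 was higher by 1.52. Of 26 other potassium channel genes, 2 were higher and 7 lower, with 3.09 for Kcnmb2, an auxiliary subunit of calcium-activated channels, and -2.65 for Kcnk9 and -1.85 for Kcnj9, genes of leak and G-protein-gated channels.

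Of 17 calcium channel genes, 1 was higher and 3 lower, and the auxiliary alpha2delta subunits went opposite ways. Cacna2d2 had 12.29, 12.37 and 12.46 in IN P10 against 9.12, 9.49 and 9.35 in Pyr P12, a difference of 3.06, whereas Cacna2d1 was lower (-4.08) and Cacna2d3 had 0.01. Of 15 sodium channel genes and partners, only Fgf11 was called, higher by 1.28, and the genes of the pore-forming subunits Scn1a, Scn2a, Scn3a and Scn8a had 0.48, -0.13, -0.37 and -0.64. Pex5l, which encodes a partner of HCN channels, was lower (-2.35), and Hcn2 had 0.51. Of 20 ion pump and chloride transporter genes, 0 were higher and 2 lower, Slc24a4 (-2.63) and Slc8a2 (-1.78), both sodium-calcium exchangers. The chloride transporter genes Slc12a5 and Slc12a2 had -0.26 and -0.31.

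Genes of transmitter release were called in both directions, 10% higher and 12% lower, against 2.55% and 2.87% of all genes. Of 50 genes, 5 were higher, 6 lower and 39 not called, among the last Snap25 with 0.07, Syt1 with 0.16 and Rab3a with 0.03. Syt2, the calcium sensor of fast inhibitory terminals, had 10.52, 10.19 and 10.41 in IN P10 against 7.86, 8.06 and 7.97 in Pyr P12. Rab3b, Doc2b and Cplx1 were higher by 1.71, 1.59 and 1.44. Sv2b had 12.62, 12.71 and 12.62 in Pyr P12 against 8.06, 7.92 and 8.08 in IN P10, while its relatives Sv2a and Sv2c had 0.58 and 0.42. Cadps2, a priming factor of dense-core vesicles, was lower (-3.59), and so was Syt10 (-2.19).

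**Figure D4:**
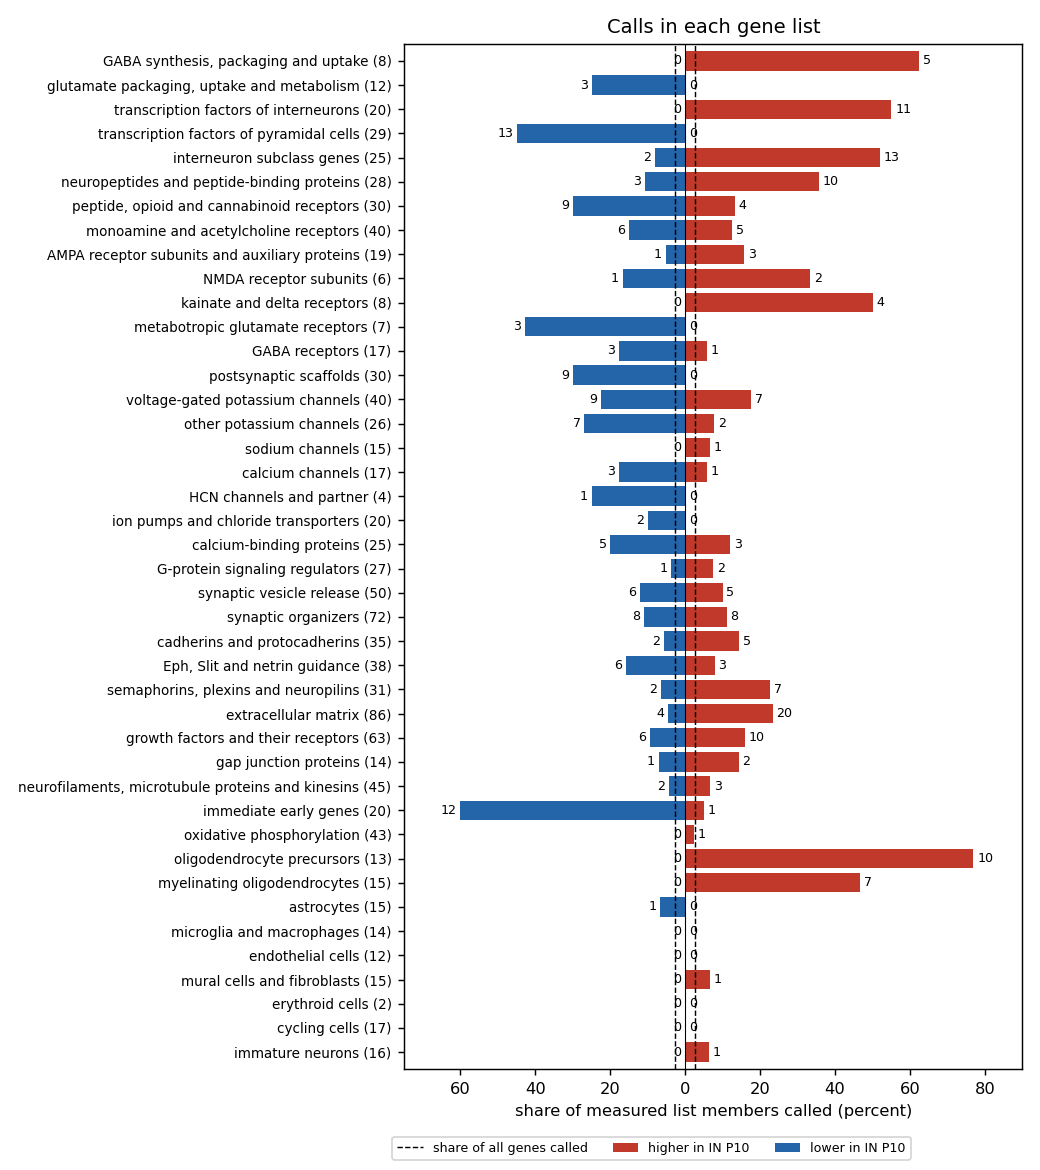
Share of the measured members of each gene list (y axis, number measured in parentheses) called higher in IN P10 (red, to the right) or lower (blue, to the left), in percent, with the number of calls at each bar and dashed lines at the shares of all genes, 2.55% and 2.87%. The longest bars are those of oligodendrocyte precursors and of GABA synthesis to the right and of immediate early genes to the left.

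Adhesion and guidance genes were divided between the populations. Of 72 synaptic organizer genes, 8 were higher and 8 lower. Nxph1 had 13.03 ± 0.04 (SD, n = 3) in IN P10 against 8.14 ± 0.27 in Pyr P12, and its relative Nxph3 was lower (-1.45). C1ql1 was higher by 2.66 and its relative C1ql3 lower (-2.53), and Cntnap3, a contactin-associated protein gene, was higher by 2.46. Of 31 semaphorin, plexin and neuropilin genes, 7 were higher and 2 lower. Plxnd1, a receptor of Sema3e, had 12.32, 12.46 and 12.50 in Pyr P12 against 8.02, 8.01 and 7.95 in IN P10, and Nrp1 was lower (-1.51). Plxnb3, Sema3d and Sema4g were higher by 2.13, 1.82 and 1.55. Of 38 genes of Eph, Slit and netrin guidance, 3 were higher and 6 lower, and after a second quantile normalization 3 and 3. Among them were the Slit receptor genes Robo1, higher by 1.82, and Robo3, at least 6.46-fold lower, as well as Epha4, lower (-2.18). Of 35 cadherin and protocadherin genes, 5 were higher and 2 lower, with 2.77 for Cdh7, 2.75 for Pcdh18, -2.85 for Pcdh20 and -2.22 for Cdh6.

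The matrix that surrounds the cells was represented mostly on the interneuron side. Of 86 extracellular matrix genes, 20 were higher and 4 lower (median 0.14). Hapln1, a link protein of perineuronal nets, had 10.76, 10.37 and 10.64 in IN P10 and was not above background in Pyr P12 (at least 9.35-fold higher). Lgals1, which encodes the secreted lectin galectin-1, had 11.96, 12.04 and 11.89 against 8.08, 8.01 and 8.22. Ptprz1, a receptor phosphatase that also exists as a secreted proteoglycan, was higher by 3.44, and Bcan, a proteoglycan core gene of these nets, by 2.73. Part of this list also marks cells of the oligodendrocyte lineage, whose markers were higher in IN P10 too, as given below. Gpc5, a glypican gene, was lower (-1.51).

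Of 63 growth factor and receptor genes, 10 were higher and 6 lower. Igf1, which encodes an insulin-like growth factor, had 10.87, 11.09 and 11.18 in IN P10 against 7.83, 7.77 and 7.85 in Pyr P12, while Igf1r, its receptor gene, had -0.58 and was not called. Bmp4 was higher by 2.77, and Ret, a receptor of GDNF-family ligands, by 2.76. Met, the receptor of hepatocyte growth factor, had 10.90, 10.84 and 10.84 in Pyr P12 against 7.83, 7.57 and 7.40 in IN P10, and the ligand genes Inhba, Ptn and Kitl were lower (-1.77, -1.71 and -1.67). Of 14 gap junction genes, 2 were higher and 1 lower. Gjc3, a connexin gene of oligodendrocytes, was higher by 3.06, or by 2.51 with values below background raised to it. Gjd2, the gene of the neuronal gap junction protein connexin 36, was higher by 2.69 (SE 0.08, adjusted p = 2.26e-11), and Gjc1 was lower (-1.51).

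Of 45 genes of neurofilaments, microtubule proteins and kinesins, 3 were higher and 2 lower. Besides Nek7, Tubb2b, a tubulin gene, was higher by 1.40, and Nefh, the heavy neurofilament gene, by 1.05, a call lost without IN P10 replicate C (0.97). The other neurofilament genes went the other way, with -2.98 for Nefm and -1.45 for Nefl. The other measured members of the NEK family in this list ran from -0.36 for Nek11 to 0.27 for Nek3, with none called. Nek11 was not above background in either group. Of 25 calcium-binding protein genes, 3 were higher, led by Calb2, the calretinin gene, by 1.99, and 5 lower, led by Necab3 (-2.60) and Caln1 (-2.22). Calb1, the calbindin gene, had nearly equal means of 12.46 in IN P10 and 12.45 in Pyr P12.

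Immediate early genes, which neurons switch on within minutes of activity or other stimuli, were lower in IN P10. Of 20 such genes, 12 were lower and 1 higher, with a median of -1.24. Egr1, a zinc finger factor, had 9.11, 8.87 and 9.01 in IN P10 against 11.56, 11.98 and 11.60 in Pyr P12. Npas4, a factor induced by calcium influx, had 8.80, 8.67 and 8.64 against 10.67, 10.97 and 11.18. Arc, which acts on AMPA receptor uptake, had 8.63, 8.54 and 8.77 against 10.42, 10.78 and 10.77. Nr4a3 was lower (-2.79, SE 0.09, adjusted p = 4.27e-11), and so was Dusp6, a phosphatase of ERK (-2.44). Fos and Fosb had -0.83 and -0.84 and were not called. Jun was the exception, higher by 1.32, with 11.92, 11.81 and 11.72 against 10.50, 10.42 and 10.55. The cells were dissociated with papain and sorted before RNA extraction, and whether the signal of these genes was set in the tissue or during dissociation was not tested.

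Of 43 nuclear genes in the list of oxidative phosphorylation, 42 were not called. The exception was Ppargc1a, a coactivator of mitochondrial genes, with 12.59, 12.70 and 12.76 in IN P10 against 10.21, 10.29 and 10.02 in Pyr P12. The median difference was 0.31, against -0.07 over all genes, and 31 were higher and 1 lower at an unadjusted p under 0.05. The share of all genes at an unadjusted p is not given here. At an adjusted p under 0.05 with no fold threshold, a stricter threshold, 3161 of all 19937 genes were higher and 6167 lower.

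Many markers of the oligodendrocyte lineage were called higher in IN P10, and of the markers of other non-neuronal cells only Cspg4 was. Of 13 markers of oligodendrocyte precursors, 10 were higher and 0 lower, and in the newborn pair 10 were higher too. On all 3 arrays, 13 of the 13 were above background in IN P10 and 12 in Pyr P12. The log2 of their summed signal was 14.05 to 14.6 in IN P10 and 12.6 in Pyr P12. Gpr17, a receptor of differentiating precursors, had 11.87, 11.06 and 11.23 in IN P10 against 8.23, 8.09 and 7.71 in Pyr P12, and Pdgfra, the PDGF receptor gene of precursors, had 11.10, 10.23 and 10.36 against a mean of 7.71 ± 0.24 (SD, n = 3). In both genes IN P10 replicate A was the highest array, and the groups did not overlap. Of 15 markers of myelinating oligodendrocytes, 7 were higher and 0 lower, with a summed level of 13.1 to 13.5 against 11.8, and 12 were above background on all arrays in IN P10 and 8 in Pyr P12. Cnp, an enzyme gene of myelin, was higher by 2.89, and Mag by 1.68, while Mog, Mobp and Mbp had 0.79, 0.65 and 0.54. Several markers of precursors also mark neurons or other cells, such as C1ql1 and Cspg4, and the sort took any GFP+ cell of the Nkx2-1 lineage. The part of oligodendrocyte lineage cells in the matrix and growth factor counts was not tested. In sorted samples, fewer cells of a type and less RNA per cell cannot be told apart.

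The summed level of 15 astrocyte markers was 12.5 to 12.7 in IN P10 and 13.4 to 13.5 in Pyr P12, with 11 and 10 above background on all arrays. Without Slc1a2 the sum was 12.3 to 12.6 in IN P10 and 12.1 to 12.2 in Pyr P12, so that 1 gene sets the direction. Slc1a2 was the only one called, lower (-3.41), and Gfap, Aqp4 and Gja1 had -0.06, -0.03 and -0.06. Aqp4 and Gja1 were not above background in either group. After a second quantile normalization 1 astrocyte marker was also called higher. Of 14 microglia and macrophage, 12 endothelial and 17 cycling cell markers, limma called 0 in either direction, with 1, 0 and 3 higher and 0, 1 and 5 lower at an unadjusted p under 0.05. Over all 19937 genes, 3161 were higher and 6167 lower at an adjusted p under 0.05 with no fold threshold. This is a stricter threshold than the unadjusted p, so it gives no matching share for the marker counts. Cspg4 was the only one of 15 mural cell and fibroblast markers called. The summed level of these 15 was 11.76 to 11.98 in IN P10 and 11.50 to 11.62 in Pyr P12.

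Among the 291 microRNA loci with a probe set, 121 of them above background, 1 was called, and it is given here because it lies in a host gene on the pyramidal side. It was chosen after its values were seen. The arrays read the transcript of the locus, not the mature microRNA. Mir128-1 had 10.81, 10.83 and 11.19 in Pyr P12 against 7.61, 8.04 and 7.82 in IN P10, a difference of -3.13 (SE 0.14, adjusted p = 7.45e-10). In RefSeq it lies at chr1:128202361-128202430 on the plus strand, inside R3hdm1, which was lower (-1.02), a call lost when each array was centred on its median. A second locus, Mir128-2 at chr9:112118636-112118711 on the minus strand, gives the same mature product. It lies inside Arpp21, which had 12.46, 12.49 and 12.55 in Pyr P12 against 8.37, 8.20 and 8.22 in IN P10. The probe set of Mir128-2 had -0.56 and was not called. The shared mature product is shown with its seed, bases 2 to 8, in capitals.
miR-128-3p: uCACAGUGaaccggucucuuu

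A share of the difference was present at birth. In the newborn pair, 375 genes (1.88%) were called on the interneuron side and 353 (1.77%) on the pyramidal side. Of the genes higher in IN P10, 189 were also higher at P0, which is 37.2% of the older and 50.4% of the newborn calls, and of the genes lower in IN P10, 144 were also lower at P0, 25.1% of the older and 40.8% of the newborn calls. The change of the difference itself was tested as the older minus the newborn difference, and it was more positive by over 1 on the log2 scale for 450 genes (2.26%) and more negative for 517 (2.59%). Since the older pair differs in age as well, this test compares pairs and not equal spans of time. Of 308 genes higher in IN P10 and not called in the newborn pair, 212 passed this test in the positive direction, and of 424 lower and not called at P0, 265 passed it in the negative direction. Where a group was not above background, the change is given with every value below the background level raised to it.

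**Figure D5:**
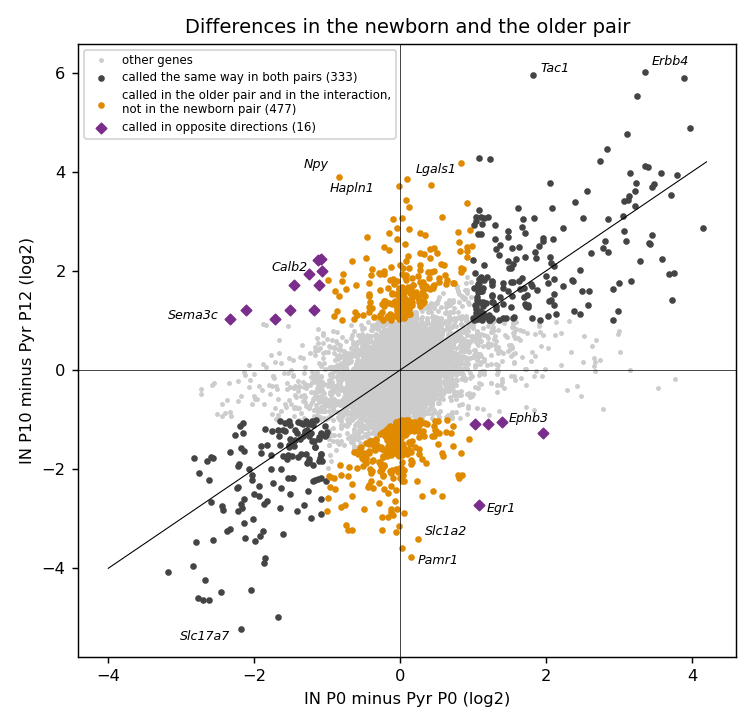
Log2 difference of each gene in the newborn pair, IN P0 minus Pyr P0 (x axis), and in the older pair, IN P10 minus Pyr P12 (y axis), with the line of equal differences in black. Dark points were called in the same direction in both pairs, orange points in the older pair and in the test of the change but not in the newborn pair, and purple diamonds in opposite directions, 11 above and 5 below the horizontal axis.

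Few transcription factors of interneurons changed their difference between the pairs. Of the 20, 11 were higher in the older and 12 in the newborn pair, and only 1, Dlx1, passed the test of the change (1.63). Lhx6 had 4.10 and 3.40, Maf 3.69 and 3.46, and Sox6 3.43 and 3.12 in the older and the newborn pair. Among pyramidal factors, 5 had a more negative and 1 a more positive difference in the older pair. The change was -2.01 for Tbr1, -1.84 for Rorb and, with values raised to background, -1.08 for Neurod6, while the difference of Fezf2 changed by -0.31 and that of Foxp2 by -0.08. Of the genes of GABA synthesis and packaging, Gad2, Gad1 and Slc32a1 had a wider difference in the older pair, which changed by 1.84 for Gad2 with values raised to background and by 1.64 for Gad1 and 1.47 for Slc32a1. The difference of Slc17a7 changed by -3.04, with Pyr P0 at 10.05, 10.31 and 10.25 and Pyr P12 above 13 on each array.

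The difference of many peptide genes changed between the pairs. Of the 28, 10 were more positive and 2 more negative in the test of the change. Among the named genes, Npy had the largest fitted change, 4.73. Its newborn difference was -0.83, under the fold threshold, with 12.38, 12.51 and 12.01 in IN P0 and 13.09, 13.08 and 13.23 in Pyr P0. Of the 4 groups, only Pyr P12 had a low level of Npy. Tac1 took another course, with a high level only in IN P10. Tac1 had 8.15, 7.71 and 7.47 in IN P0, was not above background in Pyr P0 or Pyr P12, and its change was 4.03 with values raised to background. In the same way the change was 3.25 for Crhbp. It was 2.28 for Sst, 2.15 for Penk and 2.12 for Pdyn. On the receptor side, the difference of Crhr1 changed by -1.82 and that of Tacr3, not above background in either newborn group, by -1.89 with values raised to background. Those of Sstr2 (-0.40) and Adcyap1r1 (0.12) did not pass the test, nor did that of Npy1r.

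Matrix genes also changed their difference. Of the 86, 21 were more positive and 4 more negative in the test of the change. Of 15 markers of myelinating oligodendrocytes, 5 were more positive and 0 more negative, with 3 higher at P0 against 7 later, and of 13 precursor markers 3 were more positive and 2 more negative. Their part in the matrix count was not tested. Hapln1 was not above background in either newborn group or in Pyr P12, and Lgals1 had 8.39, 8.45 and 8.32 in IN P0 and 8.25, 8.42 and 8.23 in Pyr P0, and for both genes IN P10 was the one group with a high level. Ptprz1, in contrast, was near 12 in both newborn groups and in IN P10 and had 8.53, 8.13 and 8.44 in Pyr P12. Of the kainate receptor genes, Grik1 and Neto1 had a larger difference at P0 than later, with changes of -2.31 and -1.91, while that of the NMDA receptor gene Grin3a changed by 0.04. Calb1 and Cacng3, an auxiliary AMPA receptor subunit gene, differed at P0 and were not called later. Cacng3 had 12.24, 12.26 and 12.28 in IN P0 against 8.69, 8.75 and 8.04 in Pyr P0, a difference of 3.77 that changed by -3.94. Calb1 had 10.99, 10.53 and 10.49 against 7.88, 7.96 and 6.74, and its change was -3.14.

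Of the 20 immediate early genes, 13 were more negative in the test of the change and 0 more positive, and at P0 2 were higher and 2 lower in IN P0. Egr1 changed most, by -3.80, and turned its direction, with 10.30, 10.05 and 10.64 in IN P0 against 8.97, 9.50 and 9.27 in Pyr P0. Nr4a1, Npas4 and Arc changed by -2.91, -2.48 and -2.07. In Pyr P12 the levels of Egr1, Npas4 and Arc were above those of each of the other groups on every array.

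Only 16 genes were called in opposite directions in the pairs. Higher in the older and lower in the newborn pair were 11, among them Calb2 (1.99 and -1.08), Sema3c, a secreted semaphorin gene (1.02 and -2.33), Lpl, which encodes lipoprotein lipase (1.22 and -2.12), Kif26b, a kinesin gene (2.21 and -1.13), and Timp3, a matrix protease inhibitor gene (1.72 and -1.12). Calb2 was not above background in IN P0, and with values raised to background its newborn difference was -0.90, under the fold threshold, as was that of Cldn1 (-0.90). The call for Sema3c in the older pair was lost without IN P10 replicate A (0.95) or Pyr P12 replicate C (0.95). Lower in the older and higher in the newborn pair were 5, Egr1, Ano3, Ephb3, Gda and Ryr2. Ano3, an anoctamin gene, had -1.27 and, with values raised to background, 1.72, Ephb3, an ephrin receptor gene, -1.05 and 1.39, Gda, the guanine deaminase gene, -1.09 and 1.21, and Ryr2, a calcium release channel gene, -1.09 and 1.03. The call for Ephb3 was lost after a second quantile normalization (-0.98).

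Other genes differed by nearly the same amount in both pairs. Those with the smallest change among genes called the same way in both pairs were Rhoq, Etl4, As3mt, Mgat4c and Syt17 on the higher side and Angpt1, Gjc1, Nxph3, Pantr1 and Nefl on the lower side, with changes between -0.02 and 0.02. Mgat4c, a glycosyltransferase gene, was higher by 2.09 in the older and 2.11 in the newborn pair, and Nefl, the light neurofilament gene, was lower (-1.45 and -1.48). The call for Rhoq in the older pair was lost without IN P10 replicate A (0.98) or Pyr P12 replicate A (0.99). With values raised to background, neither Rhoq (0.72) nor Angpt1 (-0.25) was called there.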

How the data were processed

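Total RNA of GFP+ cells sorted from mouse cortex was hybridized by the authors to Affymetrix Mouse Gene 1.0 ST arrays. The deposited log2 values are RMA values made by the authors with Bioconductor. RMA quantile-normalizes the arrays, so a shift shared by all genes cannot be seen. Versions, annotation release and genome build are not given in the sources used here. Of 28192 probe sets, 21640 had 1 symbol, 1321 several and 5231 none in the platform annotation. The 22961 with a symbol were tested, and 954 genes had more than 1 probe set. Symbols were checked against RefSeq (GRCm38.p6): 21553 matched by identifier and 0 changed.

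limma 3.58.1 (R 4.3.3, lmFit and eBayes) was fitted on 12 arrays in 4 groups without a block (8 residual degrees of freedom), with Benjamini-Hochberg adjustment over the tested probe sets. The methods name SAM, an alternative here, written for this work. Same-letter arrays of IN P10 and Pyr P12 had deviations that correlated at r -0.04 to 0.07, and those of all groups at -0.18 to 0.19. Not every pair exceeded 0.1, so letters were not taken to pair samples. The test was checked on simulated data. The members and the 42 gene lists were chosen with earlier results of these data known. Genes named were the 5 markers, the 15 most changed each way, the 4 most changed each way per list, the 10 with the largest and the 5 with the smallest change between pairs in each direction; others were chosen after their values were seen. Alternatives were SAM, limma on 2 groups, limma-trend, a replicate block, other filters, probe sets, scalings and thresholds, and leaving out each array. Raising values below background to it was added after seeing the data, as were the alternatives for genes named beyond the rule. Figures were drawn with matplotlib 3.10.9 (Python 3.11.15).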

Additional observations from a re-analysis of the deposited data

Results flagged for a closer look

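The difference between interneurons and pyramidal cells was itself different in the older and the newborn pair, by the test of the change in limma, for 450 genes in the positive and 517 in the negative direction. The rankings that follow leave out symbols such as Gm with digits or those ending in Rik. Among genes called in the older pair, those with the 10 largest fitted changes in the positive direction were Npy (4.73), Tac1 (4.13), Lgals1 (3.77), Hapln1 (3.73), Ptprz1 (3.36), Sema3c (3.36), Crhbp (3.35), Kif26b (3.34), Lpl (3.34) and Cldn1 (3.31). In the negative direction they were Pamr1 (-3.91), Egr1 (-3.80), Slc1a2 (-3.66), Cadps2 (-3.62), Nrn1 (-3.30), Ano3 (-3.22), Atp6ap1l (-3.22), Lamp5 (-3.14), Inka2 (-3.12) and Slc17a7 (-3.04). Of these genes, Tac1, Hapln1, Crhbp, Cldn1, Pamr1, Nrn1, Atp6ap1l, Inka2, Lamp5 and Ano3 had values below the background level, so their order is not given. With such values raised to that level, the change was 4.03 for Tac1, 3.22 for Hapln1, 3.25 for Crhbp, 2.82 for Cldn1, -3.77 for Pamr1, -3.18 for Nrn1, -1.93 for Atp6ap1l, -3.07 for Inka2, -3.13 for Lamp5 and -2.99 for Ano3. Slc1a2 had a high level only in Pyr P12, with 12.70, 12.74 and 12.72, against means of 8.80 in IN P0, 8.55 in Pyr P0 and 9.31 in IN P10.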

How the results depend on the processing

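Of the alternatives run, only the fold threshold moved the counts over all genes by more than 1.5 times. At a fold over 1.5, the older pair had 1083 higher and 1491 lower genes, the newborn pair had 718 higher and 761 lower, and 1077 more positive and 1487 more negative were found in the change between pairs. With no fold threshold these counts were 3161 and 6167, 2260 and 2318, and 2387 and 4143, and the share of higher calls in the older pair went from 47% to 33.9%. Leaving out each array in turn gave 496 to 525 higher and 560 to 589 lower in the older pair, 356 to 383 and 340 to 382 in the newborn pair, and 437 to 473 and 504 to 539 for the change. SAM and limma on the 2 groups alone each gave 508 and 573 in the older pair, as did the replicate block, which also left the counts at 375 and 353 in the newborn pair and at 450 and 517 for the change. At an adjusted p under 0.01 the older pair still had 508 and 572. The fold threshold thus set these counts, and the fold is the same in each of these tests. Their equal counts are therefore not separate support. SAM and the 2-group fit were not run for the change between pairs, which needs 4 groups. Centring each array gave 533 and 544, and a second quantile normalization 552 and 523. Under the latter, the guidance list of Eph, Slit and netrin genes went from 6 to 3 lower. The lists of pyramidal factors and of astrocyte markers each went from 0 to 1 higher. Raising values below background to it, chosen after seeing the data, gave 489 and 540 in the older pair, 357 and 339 in the newborn pair, and 428 and 495 for the change, and 489 and 540 of the older calls were the same genes. It ended the older calls of Angpt1, Gpc3, Htr1d, Nkx2-1, Rhoq and Tnc and the change of Slc17a6, Htr1d and Pvalb. Of the 191 genes named by rule, 12 results across the alternatives lost their call, those of Ephb3, Kcnj10, Rhoq, Sema3c, Neto1, Gabrb1 and Nefh, whose differences lie near the 2-fold threshold, and 3997 kept it or stayed uncalled. Of 46 calls of genes named beyond the rule, tried without each array and under both other scalings, 18 of the results lost the call and 626 did not, in the older pair those of R3hdm1, Nkx2-1 and Kcnc1 and in the change those of Sstr1, Sstr3 and Pvalb. Kcnj10 had 0.85 without IN P10 replicate A and 1.00 without Pyr P12 replicate C. With the 99th in place of the 95th percentile as background, the number of genes above background in IN P10 or Pyr P12 was 11831 rather than 14358. Signals near background limit what can be said of Pvalb and other dim genes.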
